A study of Mus musculus with 12 samples.

Results

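Prostaglandins are made from arachidonic acid in a short enzyme chain. Annexins are calcium-dependent membrane-binding proteins, among them Anxa1, which is known as a route by which glucocorticoids restrain that chain. The 10 genes described here were listed by name: the phospholipase Pla2g4a, the cyclooxygenases Ptgs1 and Ptgs2, the terminal synthases Ptges, Ptges2 and Ptgis, and the annexins Anxa1, Anxa2, Anxa5 and Anxa6. The array annotation gave a probe to 9 of them and none to Ptgs1, so the 10 genes had 14 of the 45281 probes on the array. Of these 14 probes, 9 probes of 7 genes were bright enough to test, against 20516 of the 45281 probes, or 45.3%, over the whole array.

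The signals came from HT-22 cells, an immortalized mouse line derived from hippocampus, treated for 4 h in serum-free medium with T3 (the thyroid hormone triiodothyronine, 30 nM), CORT (corticosterone, the main rodent glucocorticoid, 100 nM), T3+CORT at the same doses, or vehicle. All 4 groups received the solvents, 0.03% DMSO and 0.001% ethanol, after growth in serum stripped of thyroid and steroid hormones. Each group had 3 Illumina arrays, which is the number of replicates behind every group mean below. By the methods each treatment was run in triplicate for the arrays. Neither they nor the labels say whether the 3 differed in day or passage, so p values measure the spread between these samples, all of 1 cell line, which may be technical.

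Cytosolic phospholipase A2, the product of Pla2g4a, frees arachidonic acid from membrane phospholipids, and the cyclooxygenases Ptgs1 (largely constitutive) and Ptgs2 (inducible) turn it into prostaglandin H2. Terminal synthases then give each prostanoid its identity, prostaglandin E2 by Ptges and Ptges2 and prostacyclin by Ptgis. Glucocorticoids are textbook repressors of Ptgs2 and Ptges and inducers of Anxa1, known as lipocortin, which was first described as an inhibitor of phospholipase A2.

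The promoters of a cyclooxygenase, a terminal synthase, the 2 annexins of that group with the highest fitted changes on CORT and Anxa4, an annexin outside the 10 genes, are shown so that the letters upstream can be set beside the signals. Each runs 5′ to 3′ on the gene's own strand, from 250 bases before to 50 bases after an annotated start, in RefSeq's table for mouse build GRCm38.p6. Capitals mark exact matches, on either strand, to AGAACA (the core hexamer of glucocorticoid receptor sites), AGGTCA (the core hexamer of thyroid hormone receptor sites), TGACG (the core of the cyclic AMP response element) or CACGTG (the E box).
Ptgs2 promoter, chr1:150099781-150100080, plus strand: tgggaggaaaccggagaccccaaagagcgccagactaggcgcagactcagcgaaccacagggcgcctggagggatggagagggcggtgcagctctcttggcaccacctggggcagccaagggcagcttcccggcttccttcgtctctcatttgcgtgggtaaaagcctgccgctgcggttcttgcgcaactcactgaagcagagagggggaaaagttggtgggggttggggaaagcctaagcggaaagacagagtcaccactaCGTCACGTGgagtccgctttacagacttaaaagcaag
Ptges promoter, chr2:30903248-30903547, minus strand: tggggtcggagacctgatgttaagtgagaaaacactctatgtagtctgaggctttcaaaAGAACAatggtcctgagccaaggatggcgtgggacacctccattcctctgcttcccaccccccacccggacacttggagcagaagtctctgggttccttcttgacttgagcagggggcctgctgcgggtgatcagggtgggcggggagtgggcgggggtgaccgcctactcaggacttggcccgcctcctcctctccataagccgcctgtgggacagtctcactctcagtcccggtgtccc
Anxa1 promoter, chr19:20390622-20390921, minus strand: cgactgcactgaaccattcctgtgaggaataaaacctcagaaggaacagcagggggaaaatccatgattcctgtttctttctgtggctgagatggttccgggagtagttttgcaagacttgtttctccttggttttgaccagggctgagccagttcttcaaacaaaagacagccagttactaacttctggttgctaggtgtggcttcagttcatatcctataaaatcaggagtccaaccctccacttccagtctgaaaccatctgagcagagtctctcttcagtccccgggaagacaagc
Anxa2 promoter, chr9:69453433-69453732, plus strand: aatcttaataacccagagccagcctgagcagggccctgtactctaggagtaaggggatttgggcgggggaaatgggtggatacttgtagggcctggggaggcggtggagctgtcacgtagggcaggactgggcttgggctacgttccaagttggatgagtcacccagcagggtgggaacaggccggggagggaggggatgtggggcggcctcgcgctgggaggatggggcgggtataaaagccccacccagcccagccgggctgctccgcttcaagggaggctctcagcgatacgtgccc
Anxa4 first start promoter, chr6:86793535-86793834, minus strand: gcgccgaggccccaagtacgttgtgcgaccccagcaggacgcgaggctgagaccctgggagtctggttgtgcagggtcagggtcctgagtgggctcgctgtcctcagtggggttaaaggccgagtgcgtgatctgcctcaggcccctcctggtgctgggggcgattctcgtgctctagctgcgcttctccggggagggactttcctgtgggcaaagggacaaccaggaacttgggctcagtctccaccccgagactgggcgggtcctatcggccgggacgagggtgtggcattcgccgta
Anxa4 second start promoter, chr6:86775065-86775364, minus strand: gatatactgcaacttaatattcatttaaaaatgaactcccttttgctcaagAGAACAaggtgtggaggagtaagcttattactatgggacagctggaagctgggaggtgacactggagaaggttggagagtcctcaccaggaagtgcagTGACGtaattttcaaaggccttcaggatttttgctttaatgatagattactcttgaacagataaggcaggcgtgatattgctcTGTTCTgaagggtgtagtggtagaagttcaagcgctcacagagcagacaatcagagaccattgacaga
In the Ptgs2 window TGACG lay on the opposite strand, 13 bases past the start, and overlapped CACGTG at 16 bases past it. The Ptges window held 1 AGAACA, 191 bases before the start. Neither the Anxa1 nor the Anxa2 window held any of the 4 motifs. Of the 2 listed starts of Anxa4, the window of the first held none of them either, and that of the second held AGAACA 199 and 18 bases before it, the nearer one on the opposite strand, and TGACG 101 bases before it. The windows of Anxa8, Anxa11, S100a11 and Slco2a1, also outside the 10 genes, are not shown and held no AGAACA. Whether any of these letters bear on the signals was not tested. Of the 10 genes, 8 had entries, 9 starts in all, and AGAACA was in 3 of the 9 (Ptges, Ptgs1 and 1 of the 2 starts of Pla2g4a), against 19% of all 32851 promoters in the table. AGGTCA was in 1 of the 9 (the other start of Pla2g4a), against 16.3% of all, TGACG in 1, against 20.8%, and CACGTG in 2 (Ptgs2 and Ptges2), against 7.15%. The full glucocorticoid receptor palindrome was in 0 of the 9 and in 0.00913% of all. Ptgis and Anxa6 were not matched in the table.

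The arrays hold normalized intensities on a linear scale, and the 12 arrays share nearly the same set of values, so every change is relative to the rest of the transcripts. Signal counts as detected from 79.0, the 95th percentile of 1506 probes for odorant and pheromone receptors. In bulk RNA, fewer expressing cells and less RNA per cell cannot be told apart. Among known target genes Tsc22d3, a glucocorticoid-induced gene, rose by 3.13 on the log2 scale with CORT at ILMN_2701664, and Klf9, induced by both hormones, rose by 1.62 with T3. The labels call the line hippocampal neuron, yet of 9 neuronal marker genes with a probe only Eno2 was at or above 79.0 on all 12 arrays, as were 0 of 10 glial and immune genes, 0 of 4 endothelial genes and 9 of 10 fibroblast and mesenchymal genes. The summed fibroblast and mesenchymal signal ranged from 23925 to 27825 on T3, 26755 to 27523 on CORT, 22031 to 23926 on T3+CORT and 23606 to 26578 on vehicle arrays, and its part in the results below was not tested. Across probes, the deviations of arrays from their group means correlated at -0.373 to 0.422 between arrays of different groups, with 0.422 for T3 replicate 1 and CORT replicate 1 and 0.364 for T3 replicate 2 and vehicle replicate 1. T3 replicate 2 had the lowest array weight, 0.302, while that of vehicle replicate 1 was 1.103. Against their group means these 2 arrays were both low at Anxa1, Anxa4 and Ptges3 and both high at Ptgis and Ptges2. Values without both are therefore given where they bear on a result below.

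The first steps of the pathway were dim. The single Pla2g4a probe, ILMN_2606027, lay between 47.6 and 61.2 on the 12 arrays, and the Ptgs2 probes lay between 57.3 and 71.2 (ILMN_1231600) and between 47.9 and 58.8 (ILMN_2717913). All 3 probes were below the limit on every array, in hormone-treated and vehicle cells alike, as were 21976 of the 45281 probes on the array. No change in Pla2g4a or Ptgs2 could therefore be measured, in either direction, and no fold change is given for them. The plot of the probes below the limit shows them with the remaining dim member probes, both of Anxa6.

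**Figure D1:**
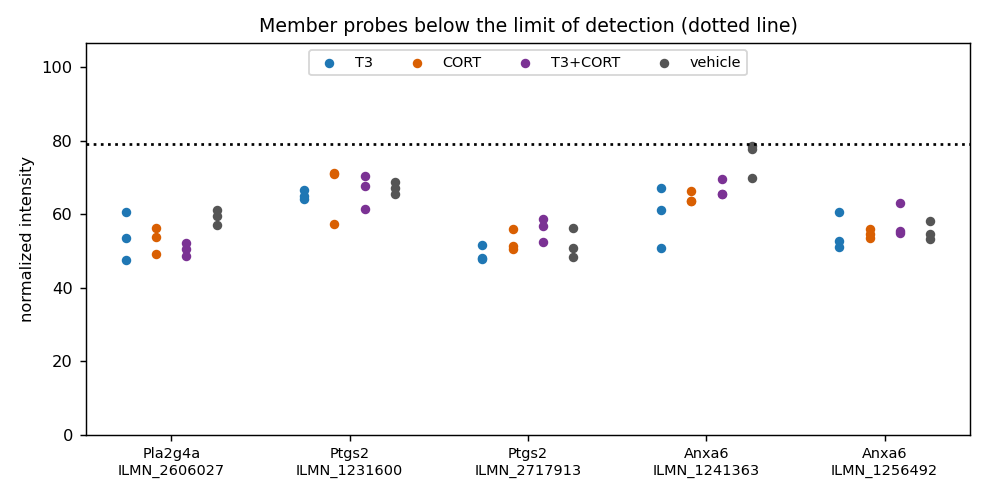
Normalized intensity (vertical axis, linear) of the 5 probes of Pla2g4a, Ptgs2 and Anxa6 that were below the limit of detection, 79.0 (dotted line), on every array. Each point is 1 array, with 3 arrays in each of the T3, CORT, T3+CORT and vehicle groups; the highest point, 78.4, is a vehicle array at an Anxa6 probe.

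Among the terminal synthases, Ptges and Ptges2 did not pass the test in any comparison, with Ptges near the limit and Ptges2 well above it, and Ptgis was bright. Ptges, the inducible microsomal prostaglandin E synthase, gave 98.4, 103.1 and 84.6 on T3 arrays at ILMN_2616028, 89.0, 101.3 and 88.8 on CORT arrays, 86.1, 83.3 and 73.6 on T3+CORT arrays, and 98.5, 89.2 and 93.1 on vehicle arrays. The 3 T3+CORT arrays were the lowest against CORT and against vehicle, where the groups did not overlap, and 1 of them fell below the limit. The log2 fold change of T3+CORT against vehicle was -0.21, with a 95% interval of -0.40 to -0.02 and an adjusted p of 0.12 in limma. T3+CORT against T3 was -0.23 (limma adjusted p = 0.082), and it passed only without T3 replicate 3, the lowest T3 array (-0.32, limma adjusted p = 0.028). At the other Ptges probe, ILMN_2786442, the 12 arrays lay between 94.6 and 116.5 and every pair of groups compared overlapped. There the same change was -0.06 (95% interval -0.24 to 0.12, limma adjusted p = 0.68).

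Ptges2, the membrane-associated prostaglandin E synthase 2, averaged 245 ± 26.2 on T3, 260.0 ± 35.9 on CORT, 226 ± 19.2 on T3+CORT and 238 ± 26.0 on vehicle arrays (SD, n = 3 each). The CORT mean was set by 1 array at 300.8, and the groups overlapped in all comparisons. Its log2 fold change on CORT was 0.13 (95% interval -0.11 to 0.37, limma adjusted p = 0.5), and that on T3+CORT was -0.07 (-0.31 to 0.17, limma adjusted p = 0.73).

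Ptgis, which makes prostacyclin, was the brightest of the prostaglandin genes, at percentile 91.5 of all probes by mean signal. It gave 1197.6, 1319.4 and 1020.5 on T3 arrays, 985.4, 1130.2 and 1024.6 on CORT arrays, 898.9, 949.4 and 923.2 on T3+CORT arrays, and 1172.8, 967.0 and 890.9 on vehicle arrays. The T3+CORT arrays were all below the CORT and the T3 arrays but overlapped with vehicle. T3+CORT was below T3 by a log2 fold change of -0.34 (95% interval -0.57 to -0.12, limma adjusted p = 0.033). Against vehicle the log2 fold changes were 0.22 with T3 (limma adjusted p = 0.92), 0.06 with CORT (0.77) and -0.12 with T3+CORT (0.49), none past the threshold. The call was lost without T3 replicate 1 or 2 or any 1 of the T3+CORT arrays (limma adjusted p of 0.062 to 0.099), and without both T3 replicate 2 and vehicle replicate 1 the value was -0.26 (limma adjusted p = 0.067).

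Anxa1 was higher on CORT arrays at the single probe, ILMN_1259252, without passing the test. Its signal was 656.7, 559.8 and 724.7 on T3 arrays, 889.6, 915.3 and 783.0 on CORT arrays, 753.7, 691.9 and 876.4 on T3+CORT arrays, and 551.0, 810.2 and 712.7 on vehicle arrays. The lowest CORT array was below the highest vehicle array, so those groups overlapped, and vehicle replicate 1 lay well under the other vehicle arrays. CORT gave a log2 fold change of 0.33 over vehicle, or 1.26-fold, with a 95% interval of 0.06 to 0.61, an unadjusted p of 0.02 and a limma adjusted p of 0.088. T3+CORT gave 0.17 (95% interval -0.10 to 0.45, limma adjusted p = 0.4), and T3 alone -0.09 (-0.36 to 0.19, limma adjusted p = 0.99).

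The vehicle arrays decided the size of the Anxa1 change on CORT. Without vehicle replicate 1 it was 0.18 (limma adjusted p = 0.42, or 0.28 with T3 replicate 2 left out as well), and without vehicle replicate 2 it was 0.46 and past the threshold (limma adjusted p = 0.039). It also passed when T3 replicate 2 was left out (limma adjusted p = 0.035) or when only the CORT and vehicle arrays were fitted (0.03). Over the 12 arrays the probes most like Anxa1 were those of Kctd2 (Pearson r = 0.929), Serf1 (0.924) and Lhx3 (0.914). These correlations are across arrays of 4 groups that share 1 normalization, and serve as a description only.

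Anxa2, which forms a heterotetramer with S100a10 and binds plasminogen and tissue plasminogen activator at the cell surface, was among the brightest transcripts, with rank 115 of 45281 by mean signal at ILMN_2657175. That probe gave 28721.4, 24986.5 and 25602.8 on T3 arrays, 31570.2, 30117.9 and 31948.5 on CORT arrays, 27684.3, 26917.5 and 28282.9 on T3+CORT arrays, and 26129.8, 27039.8 and 26129.8 on vehicle arrays. All 3 CORT arrays were above every array of the other groups. Anxa2 rose with CORT by a log2 fold change of 0.24, or 1.18-fold (95% interval 0.12 to 0.36, limma adjusted p = 0.0092). With T3+CORT it was 0.06 above vehicle (-0.06 to 0.19, limma adjusted p = 0.51) and -0.18 against CORT alone (-0.30 to -0.05, unadjusted p = 0.008, limma adjusted p = 0.34). The interaction, which asks whether the joint effect departs from the sum of both on the log2 scale, was -0.17 (limma adjusted p = 0.84). Without vehicle replicate 1 and T3 replicate 2 the rise on CORT was 0.23 (limma adjusted p = 0.021).

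A dimmer Anxa2 probe, ILMN_1233117, is annotated to the cDNA AK087259 rather than to NM_007585, and it did not follow the bright one. It gave 222.5, 241.6 and 229.3 on T3 arrays, 201.1, 226.0 and 207.5 on CORT arrays, 169.6, 192.8 and 155.0 on T3+CORT arrays, and 292.3, 257.8 and 215.7 on vehicle arrays. The T3+CORT arrays lay below those of all other groups. It fell with T3+CORT by a log2 fold change of -0.56 against vehicle (95% interval -0.79 to -0.33, limma adjusted p = 0.0018) and of -0.43 against T3 (-0.66 to -0.20, limma adjusted p = 0.011). On CORT alone the change was -0.26 (limma adjusted p = 0.11), opposite in sign to the bright probe, and it passed without vehicle replicate 3 (-0.38, limma adjusted p = 0.035). The call against T3 was lost without T3+CORT replicate 3 (-0.35, limma adjusted p = 0.061), and without vehicle replicate 1 and T3 replicate 2 the fall against vehicle was -0.46 (limma adjusted p = 0.0045) and that against T3 was -0.40 (0.012). The 2 probes together give no single direction for Anxa2, and which transcript the dim probe reads was not tested.

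Anxa5, a phosphatidylserine-binding annexin widely used to stain dying cells, was also bright (percentile 98.5 on the array). It gave 6480.0, 6865.6 and 6817.1 on T3 arrays, 5726.1, 5938.6 and 5526.1 on CORT arrays, 5315.5, 5609.5 and 5630.2 on T3+CORT arrays, and 6371.2, 6122.1 and 6183.3 on vehicle arrays. Every T3 array was above every vehicle array, and every CORT and T3+CORT array was below them. Only T3+CORT against T3 passed, with a log2 fold change of -0.28 (95% interval -0.42 to -0.15, limma adjusted p = 0.0052), or -0.27 (0.018) without vehicle replicate 1 and T3 replicate 2. Against vehicle the values were 0.11 with T3 (limma adjusted p = 0.93), -0.12 with CORT (0.22) and -0.17 with T3+CORT (0.072). The T3+CORT value passed with array weights (limma adjusted p = 0.033) and when only these 2 groups were fitted (0.043).

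Anxa6, an annexin with a duplicated core that binds endosomal and plasma membranes, fell in both CORT groups. At ILMN_2878060 it gave 818.6, 1226.3 and 950.0 on T3 arrays, 674.6, 790.1 and 830.5 on CORT arrays, 725.8, 719.1 and 771.2 on T3+CORT arrays, and 983.3, 1004.8 and 998.1 on vehicle arrays. All CORT and T3+CORT arrays were below all vehicle arrays, while the T3 arrays spread on both sides of them. The log2 fold change was -0.39 with CORT, or 0.766 of vehicle (95% interval -0.63 to -0.14, limma adjusted p = 0.03), and -0.43 with T3+CORT, or 0.742 of vehicle (-0.68 to -0.18, limma adjusted p = 0.016). T3+CORT against T3 was -0.41 (limma adjusted p = 0.019), and T3+CORT against CORT was -0.05 (limma adjusted p = 0.96).

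The Anxa6 calls were close to the threshold. Leaving out any 1 of the 3 vehicle arrays or CORT replicate 1 or 2 took the CORT call to a limma adjusted p between 0.058 and 0.14, at log2 fold changes of -0.30 to -0.41. The T3+CORT call was lost without vehicle replicate 2 or 3 or T3+CORT replicate 1 or 2 (limma adjusted p of 0.052 to 0.06, log2 fold changes of -0.41 to -0.43). The call against T3 was lost without T3 replicate 2 or T3+CORT replicate 1 or 2 (limma adjusted p of 0.062 to 0.072). Without vehicle replicate 1 and T3 replicate 2 together the CORT value was -0.39 (limma adjusted p = 0.0092), and T3+CORT against T3 was -0.26 (0.083). The remaining Anxa6 probes, ILMN_1241363 and ILMN_1256492, were below the limit, so the direction rests on 1 probe. The probes most like it over the 12 arrays were those of Tyms-ps (Pearson r = 0.979), Smdt1 (0.967) and Ergic3 (0.966).

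**Figure D2:**
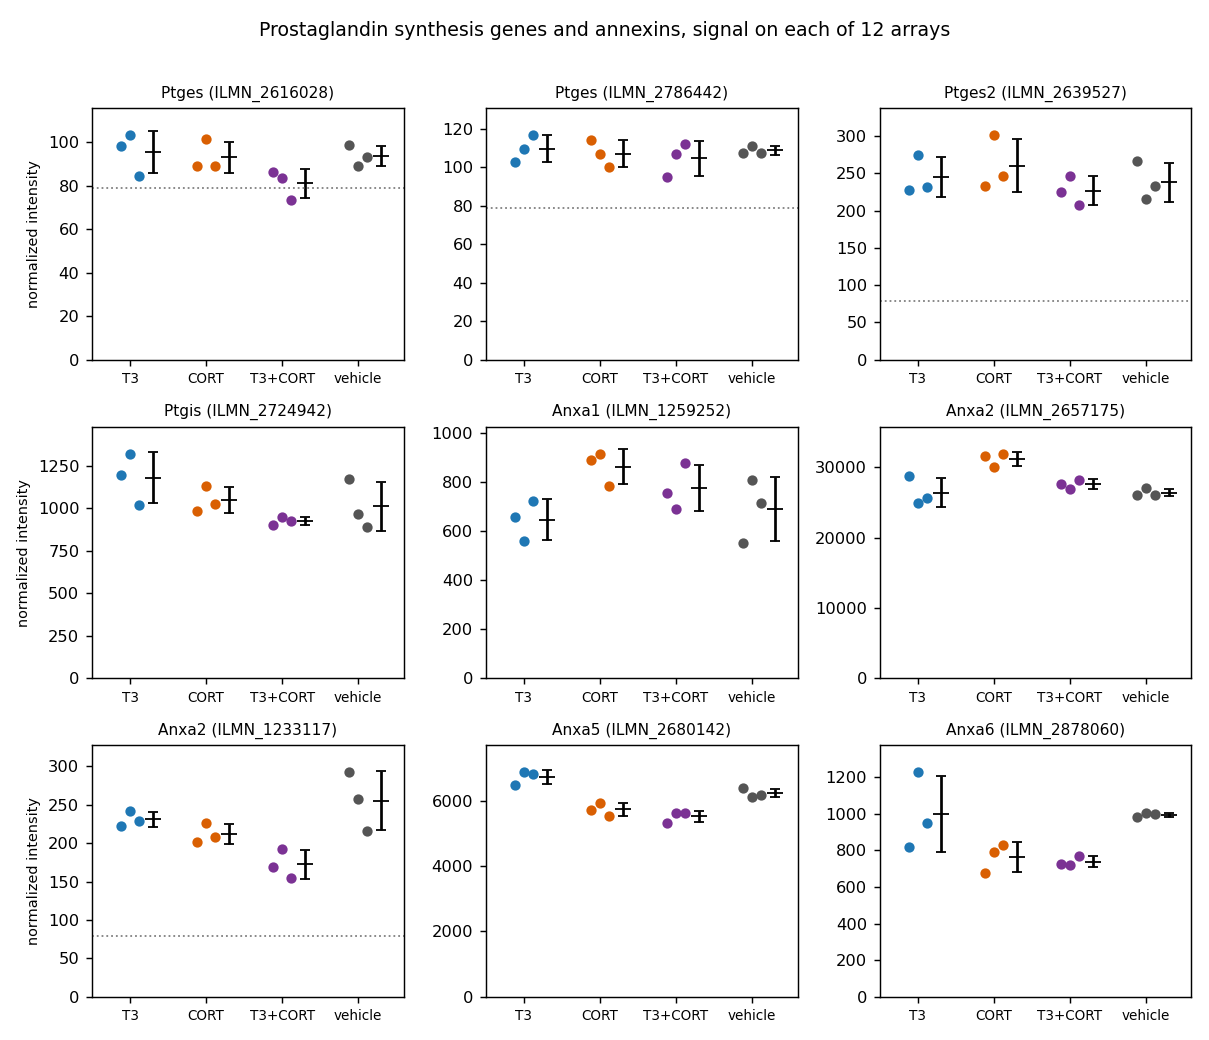
Normalized intensity (vertical axes, linear, from 0) at the 9 tested probes of Ptges, Ptges2, Ptgis and the 4 annexins, with 1 point per array and, to the right of each group, the mean and SD of 3 arrays; dotted lines mark the limit of detection where it falls in range. The CORT arrays stand above all others at the bright Anxa2 probe, 30117.9 or more, and the CORT and T3+CORT arrays stand below vehicle at Anxa5 and Anxa6.

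Counted over the 9 probes, CORT called 2, the rise at the bright Anxa2 probe and the fall at Anxa6, beside 17.4% of all tested probes called in either direction, 8.37% upward and 9.06% downward. T3+CORT called 2, both downward (the dim Anxa2 probe and Anxa6), beside 17.6% of all, 8.61% upward and 8.98% downward. T3 alone called 0 of the 9 in limma, beside 0.078% of all. At an unadjusted limma p under 0.05 were 0 of the 9 and 1113 of all 20516 tested probes. The 2 of 9 called on CORT or on T3+CORT are 22.2%, a share near the background, so nothing particular to these genes is read from the counts. The median log2 fold change of the 9 was 0.01 with T3, -0.01 with CORT and -0.12 with T3+CORT, against medians within 0.01 of 0 over all tested probes.

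T3+CORT against T3 called 4 of the 9, all downward (Ptgis, the dim Anxa2 probe, Anxa5 and Anxa6), beside 19.1% of all, 9.29% upward and 9.77% downward. T3+CORT against CORT called 0 in limma, beside 0.468% of all, and the interaction called 0, beside 0.0877% of all. At an unadjusted limma p under 0.05, T3+CORT against CORT had 3 of the 9, beside 1690 of all 20516 tested probes. The interaction had 1 of the 9 at that level, beside 1239 of all. These comparisons share groups with those against vehicle. At the thresholds the study used, an unadjusted p under 0.02 and a change of at least 1.5-fold, 0 of the 9 passed with T3, CORT or T3+CORT, beside 0.0487%, 2.08% and 2.01% of all tested probes, and the widest change against vehicle, at the dim Anxa2 probe with T3+CORT, was to 0.678 of vehicle. Groups did not overlap at 1, 3 and 4 of the 9 probes with T3, CORT and T3+CORT against vehicle, beside 9.78%, 38.6% and 39.9% of all tested probes.

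**Figure D3:**
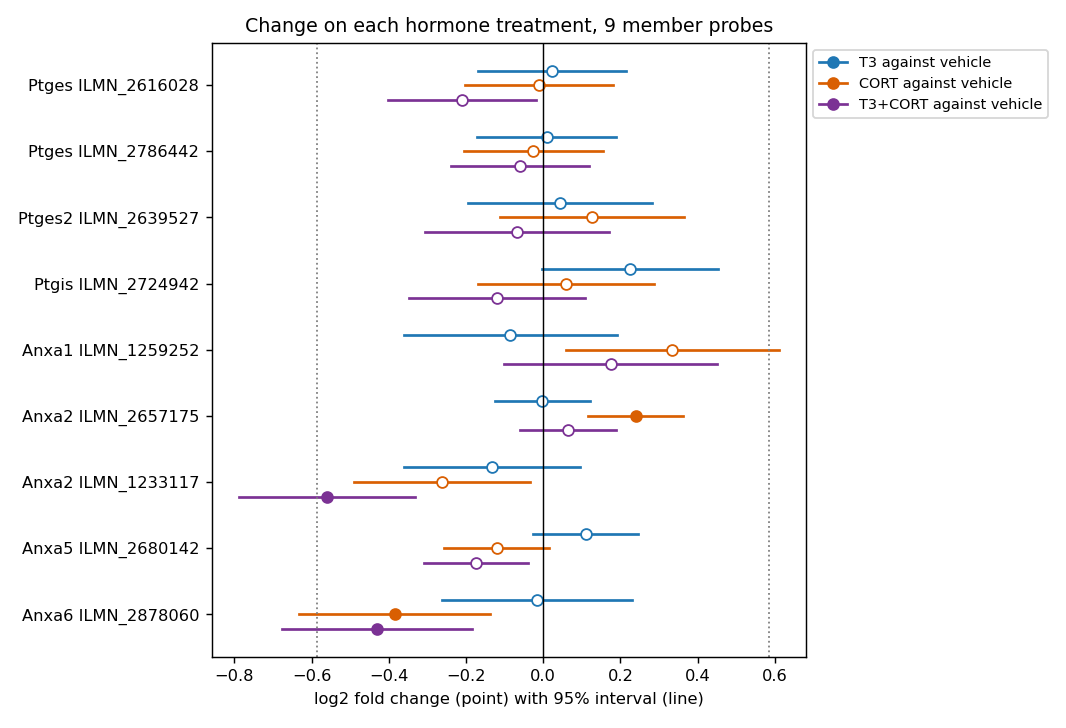
Log2 fold change (horizontal axis) of T3, CORT and T3+CORT against vehicle at the 9 tested probes, with 95% intervals from limma as lines; filled points had an adjusted p under 0.05, open points did not, and dotted lines mark 1.5-fold. Filled are the bright Anxa2 probe on CORT at 0.24, Anxa6 on CORT at -0.39 and on T3+CORT at -0.43, and the dim Anxa2 probe on T3+CORT at -0.56.

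Upstream of the cyclooxygenases, 14 of 26 listed phospholipase A2 and arachidonate-handling genes could be tested, each at its brightest probe. On CORT 2 rose and 0 fell, and on T3+CORT 1 rose and 1 fell, and over all 20 tested probes of the list 2 rose and 2 fell on each, beside 19.8% and 20.4% of all genes called when each enters with its brightest probe. Acsl4, the acyl-CoA synthetase that prefers arachidonate, rose at ILMN_1244872 to 221 ± 15.2 on CORT and 205 ± 3.5 on T3+CORT arrays, against 170 ± 5.2 on vehicle arrays (SD, n = 3 each), with log2 fold changes of 0.38 and 0.27 (limma adjusted p = 0.0035 and 0.026), the second of which was lost without any 1 of the vehicle or T3+CORT arrays (limma adjusted p of 0.053 to 0.1), and without vehicle replicate 1 and T3 replicate 2 together (0.25, limma adjusted p = 0.07). Another Acsl4 probe of similar brightness, ILMN_3136205, fell by 0.33 and 0.32 (limma adjusted p = 0.026 and 0.031), so the probes disagree. They are annotated to different transcripts, and which transcript each reads was not tested. A dimmer Acsl4 probe, ILMN_2690135, did not pass on CORT (0.17, limma adjusted p = 0.21) or T3+CORT (0.08, limma adjusted p = 0.58). Pla2g4b, a relative of Pla2g4a, rose on CORT at ILMN_1222402, with 358.5, 319.9 and 307.1 on CORT arrays against 261.9, 249.6 and 256.8 on vehicle arrays. The log2 fold change was 0.36 (limma adjusted p = 0.014), but it did not pass without vehicle replicate 2 (0.34, limma adjusted p = 0.056) or CORT replicate 1 (0.29, limma adjusted p = 0.071). A dimmer Pla2g4b probe, ILMN_3008371, annotated to the same transcript, did not pass on CORT (0.02, limma adjusted p = 0.89). Pla2g6, the calcium-independent phospholipase A2, fell on T3+CORT by a log2 fold change of -0.28 (limma adjusted p = 0.027), though not without vehicle replicate 1 or 3 or T3+CORT replicate 1 or 3 (limma adjusted p of 0.056 to 0.12).

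Plaa, named for activating phospholipase A2, fell on CORT at a dim probe, ILMN_1250847, annotated to the cDNA AK081641. It gave 97.9, 109.3 and 102.9 on CORT arrays against 156.9, 141.0 and 122.4 on vehicle arrays, with no overlap. The log2 fold change was -0.43 (limma adjusted p = 0.0042) and still passed without any 1 array. Its bright probe, ILMN_1221702, did not pass (0.13, limma adjusted p = 0.6). Pla2g12a, a secreted phospholipase A2, rose on T3+CORT at 1 of 3 tested probes, ILMN_2518483, by a log2 fold change of 0.25 (limma adjusted p = 0.045), a call lost in 9 of the 12 settings that left out 1 array, and without vehicle replicate 1 it was 0.16 (limma adjusted p = 0.25).

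Downstream, 4 of 9 other prostanoid synthases were tested and 0 passed in any comparison. Of all genes at their brightest probe, 19.8% were called on CORT and 20.4% on T3+CORT, which is also the background for the receptor and lipoxygenase lists below. With so few genes tested, nothing particular to these lists is read from the counts. Ptges3, the p23 cochaperone also described as the cytosolic prostaglandin E synthase, was well above the limit, at 984.7, 612.8 and 890.0 on T3 arrays, 1058.9, 1007.6 and 950.7 on CORT arrays, 896.4, 794.3 and 893.7 on T3+CORT arrays, and 656.0, 927.7 and 908.3 on vehicle arrays. Its low arrays, T3 replicate 2 and vehicle replicate 1, are those that were also low for Anxa1, and their part in either result beyond leaving them out was not tested. Of 10 prostanoid receptors 2 were tested, Ptger4 and Ptgir, near the limit, and neither passed. Of 10 lipoxygenase and leukotriene genes 2 were tested, and Alox12b rose on T3+CORT with only 3 of 12 arrays at or above the limit, a call lost without any 1 vehicle array, CORT replicate 3, T3+CORT replicate 1 or 2, or vehicle replicate 1 and T3 replicate 2 together.

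Of 5 genes for transport and breakdown 4 were tested, and the prostaglandin transporter Slco2a1 stood out by the disagreement of its probes in both CORT groups. At the brightest, ILMN_2961216, it gave 555.2, 490.4 and 507.2 on T3 arrays, 346.9, 335.8 and 342.9 on CORT arrays, 318.8, 337.7 and 318.4 on T3+CORT arrays, and 427.7, 390.9 and 364.7 on vehicle arrays. The T3 arrays were above all others and both CORT groups were below vehicle. T3+CORT was below T3 by a log2 fold change of -0.67 (limma adjusted p = 5.0e-05) and below vehicle by -0.28 (limma adjusted p = 0.034), a call lost without vehicle replicate 1 or 2 or any 1 of the T3+CORT arrays (limma adjusted p of 0.056 to 0.17), or without vehicle replicate 1 and T3 replicate 2 together (-0.22, limma adjusted p = 0.11). T3 against vehicle was 0.39 but did not pass (unadjusted p = 2.5e-04, limma adjusted p = 0.13). At ILMN_2433848 and ILMN_2961221 the T3 arrays were likewise all above vehicle. The log2 fold changes there were 0.43 (limma adjusted p = 0.069) and 0.30 (0.44), and neither passed. On CORT alone the change at ILMN_2961216 was -0.20 and did not pass (limma adjusted p = 0.12). ILMN_2961221 fell on CORT, by a log2 fold change of -0.33 (limma adjusted p = 0.0095), whereas ILMN_2433848 rose, by 0.32 (limma adjusted p = 0.014), though not without vehicle replicate 3 (limma adjusted p = 0.079) or CORT replicate 1 (0.055), and all 3 are annotated to the same transcript. A further probe, ILMN_1246309, passed in no comparison. Ptgr2, a prostaglandin reductase, was above T3 on T3+CORT arrays by a log2 fold change of 0.43 (limma adjusted p = 0.011), a call lost without T3+CORT replicate 1 (0.39, limma adjusted p = 0.052).

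**Figure D4:**
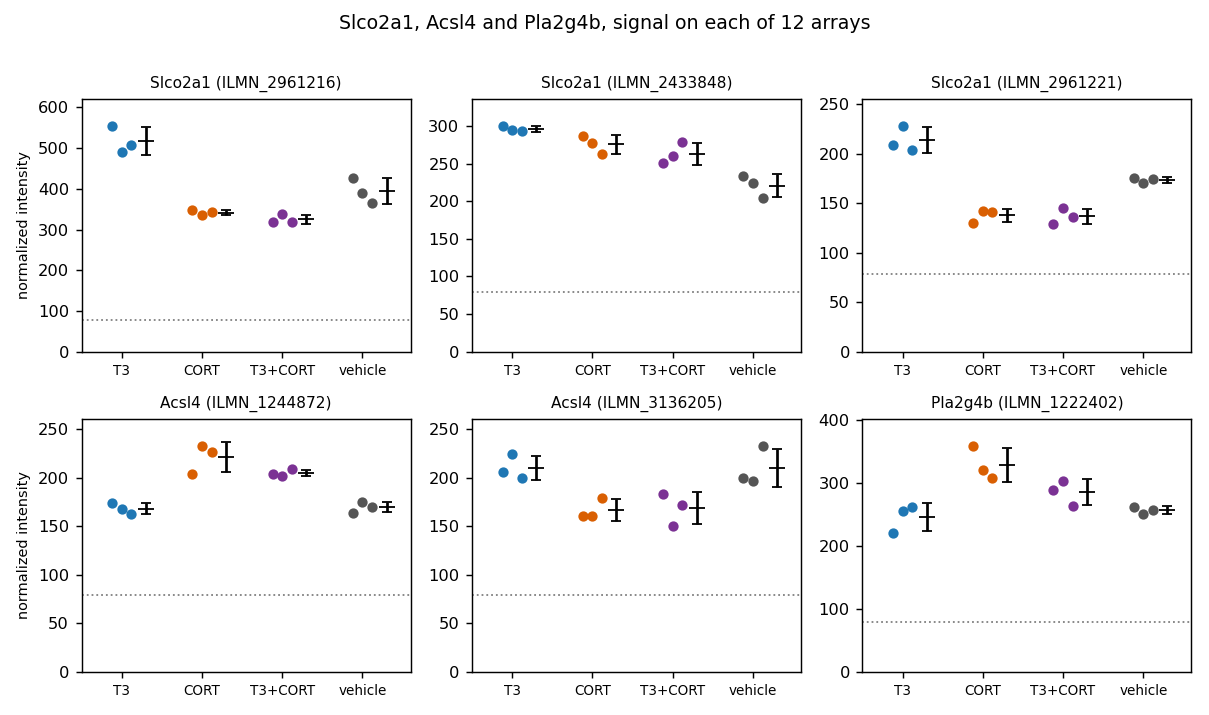
Normalized intensity (vertical axes, linear, from 0) of 3 probes of Slco2a1, 2 of Acsl4 and 1 of Pla2g4b, with 1 point per array and the mean and SD of 3 arrays beside each group; the dotted line is the limit of detection, 79.0. The CORT arrays lie below vehicle at Slco2a1 ILMN_2961216 and ILMN_2961221 and above it at ILMN_2433848, and the Acsl4 probes part in the same way.

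The other annexins held the largest change of the family. Of 8 genes 6 were tested, and on CORT 2 rose (Anxa4 and Anxa8) and 1 fell (Anxa11), while on T3+CORT 1 rose (Anxa4) and 2 fell (Anxa7 and Anxa11), beside 19.8% and 20.4% of all genes called. Anxa4, which self-associates on membranes and is best known from epithelia, gave 474.0, 382.6 and 520.5 at ILMN_2772410 on T3 arrays, 1110.1, 988.8 and 999.0 on CORT arrays, 920.4, 740.9 and 1086.2 on T3+CORT arrays, and 367.3, 538.4 and 509.4 on vehicle arrays. All CORT and T3+CORT arrays were above all T3 and vehicle arrays. It rose 2.22-fold on CORT, a log2 fold change of 1.15 (limma adjusted p = 4.2e-05), and by 0.96 with both hormones (2.8e-04). Without vehicle replicate 1 and T3 replicate 2 these rises were 0.98 and 0.79. At ILMN_2935012 the rise on CORT was smaller, 0.49 (limma adjusted p = 0.0018), with 714.4, 777.7 and 845.5 on CORT arrays against 532.9, 576.9 and 551.0 on vehicle arrays. On T3+CORT this probe, annotated to the same transcript, did not pass (0.21, limma adjusted p = 0.13).

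Anxa8 was higher with CORT than with both hormones. It gave 120.0, 121.1 and 113.4 on T3 arrays, 132.4, 142.3 and 154.1 on CORT arrays, 93.7, 99.7 and 106.4 on T3+CORT arrays, and 112.4, 110.0 and 115.8 on vehicle arrays, all not far above the limit. The CORT arrays were above, and the T3+CORT arrays below, all arrays of the other groups. CORT was 0.34 above vehicle on the log2 scale (limma adjusted p = 0.008) and T3+CORT was -0.52 against CORT (limma adjusted p = 0.0043), while the interaction, -0.58, did not pass (limma adjusted p = 0.07). T3+CORT against vehicle, -0.18, did not pass either (limma adjusted p = 0.15). These values are from ILMN_2724558, and the other Anxa8 probe, ILMN_2863332, annotated to the same transcript, was below the limit on every array. Anxa11, an annexin that tethers RNA granules to lysosomes, averaged 808 ± 45.1 on CORT, 737 ± 1.4 on T3+CORT and 973 ± 47.1 on vehicle arrays (SD, n = 3 each) at ILMN_3107156. It fell by log2 fold changes of -0.27 (limma adjusted p = 0.027) and -0.40 (0.0022). The CORT call was lost without vehicle replicate 1 or 3 or CORT replicate 2 or 3 (limma adjusted p of 0.088 to 0.11), or without vehicle replicate 1 and T3 replicate 2 together (-0.24, limma adjusted p = 0.076). An Anxa11 probe near the limit, ILMN_2666669, annotated to the same transcript, did not pass on CORT (0.05, limma adjusted p = 0.69) or T3+CORT (-0.02, limma adjusted p = 0.89). Anxa7, near the limit at ILMN_1246887, fell on T3+CORT by -0.32 (limma adjusted p = 0.017), but not without vehicle replicate 1 or 3 or T3+CORT replicate 1 or 2 (limma adjusted p of 0.06 to 0.066). The other tested Anxa7 probe, ILMN_2561575, did not pass on T3+CORT (-0.14, limma adjusted p = 0.26).

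The S100 partners of Anxa2 and Anxa1 moved in opposite directions on CORT. S100a10, the partner of Anxa2, gave 2829.5, 2127.6 and 3502.4 on T3 arrays, 4126.8, 4387.1 and 4616.3 on CORT arrays, 4623.8, 3894.6 and 3435.8 on T3+CORT arrays, and 2852.4, 3328.2 and 3135.7 on vehicle arrays. The CORT and T3+CORT arrays were all above vehicle, but T3+CORT against vehicle did not pass (0.35, limma adjusted p = 0.084). CORT passed with a log2 fold change of 0.50 (limma adjusted p = 0.017), though not without vehicle replicate 1 or 3 or CORT replicate 2 or 3 (limma adjusted p of 0.05 to 0.08, log2 fold changes of 0.44 to 0.50). Without vehicle replicate 1 and T3 replicate 2 together the CORT value was 0.44 (limma adjusted p = 0.0068). S100a11, the partner of Anxa1, gave 33218.4, 29717.5 and 34948.2 on T3 arrays, 24888.8, 23576.5 and 23290.6 on CORT arrays, 23390.3, 23290.6 and 24307.5 on T3+CORT arrays, and 30939.6, 33534.7 and 33051.1 on vehicle arrays. Both CORT groups were below T3 and vehicle on every array, by log2 fold changes against vehicle of -0.44 with CORT (limma adjusted p = 1.1e-04) and -0.46 with T3+CORT (9.6e-05). Of 9 listed partners and receptors 5 were tested, with 1 rise and 1 fall on CORT, and on T3+CORT 1 rise (S100a6) and 2 falls (S100a11 and the scaffold protein gene Ahnak, whose probes disagree in sign), beside the same 19.8% and 20.4% of all genes.

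**Figure D5:**
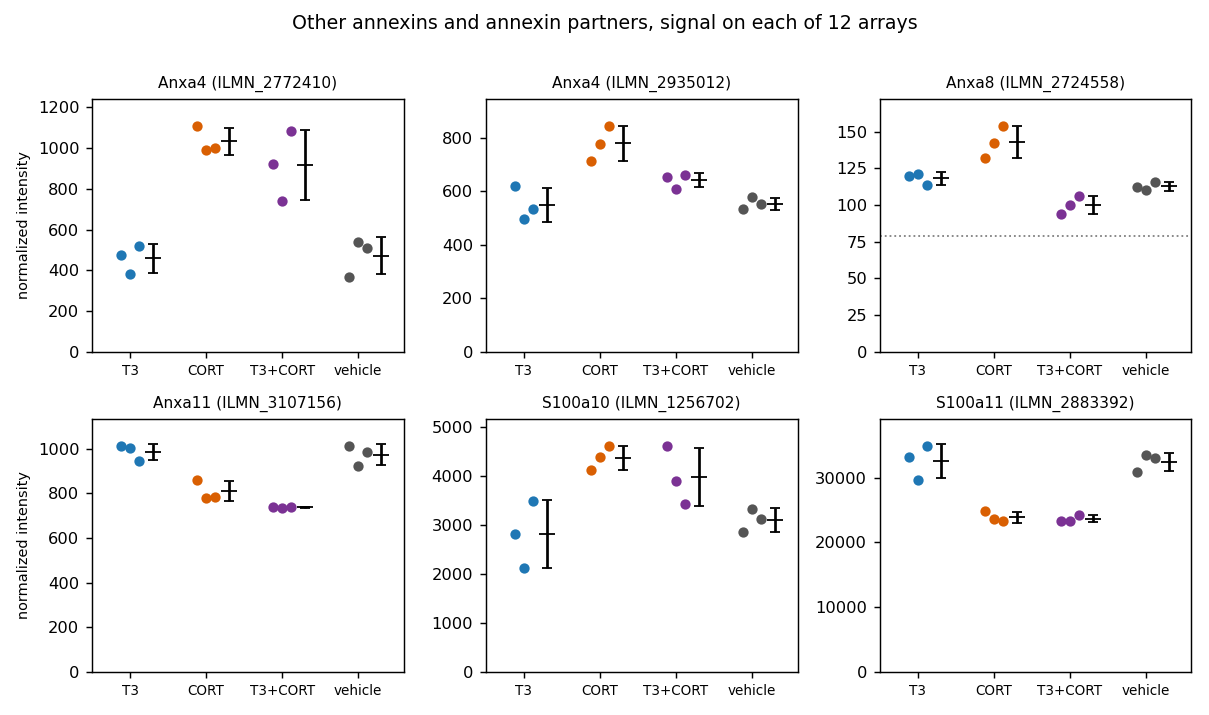
Normalized intensity (vertical axes, linear, from 0) of Anxa4 at 2 probes, Anxa8, Anxa11, S100a10 and S100a11, with 1 point per array and the mean and SD of 3 arrays beside each group; dotted lines mark the limit of detection where it falls in range. Anxa4 and S100a10 stand above vehicle and Anxa11 and S100a11 below it in both CORT groups, whereas Anxa8 is highest on CORT and lowest on T3+CORT arrays. On T3+CORT the rises of S100a10 and of Anxa4 at ILMN_2935012, and the lower signal of Anxa8, did not pass the test against vehicle.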

How the data were processed

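Total RNA of HT-22 cells was hybridized to 12 Illumina Mouse WG-6 arrays, and groups and replicate numbers came from the sample labels. The values used are normalized intensity values deposited by the authors, who by their methods ran rank-invariant normalization in BeadStudio. With the values of each array sorted, the arrays differ by at most 0.5 at any rank. The methods name no step that gives all arrays nearly the same set of values, so which normalization the deposited values had is not known.  A table of non-normalized signals and detection p values has 24 columns whose headings match no label, and these were not used.

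Probes at or above 79.0 on at least 3 of 12 arrays were tested, 20516 of 45281. Log2 intensity was modelled in limma 3.58.1 (R 4.3.3; lmFit, then trended eBayes; 4 groups, 8 residual degrees of freedom), with Benjamini-Hochberg adjustment over the tested probes and calls at 0.05; the code was tested on simulated data. The number of arrays limits precision. Symbols came from the platform annotation (1 symbol for 34885 probes, several for 18, none for 10378) and promoters from RefSeq.

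The genes and lists were chosen with earlier results of these data known. By rule, the 10 genes were named at every probe, others could be named from fixed lists where a probe passed in any contrast, as could hormone-response genes, beside the 3 probes most like Anxa1 and like Anxa6. Ptges3, Ptger4 and Ptgir were named outside that rule, after their values were seen. Alternatives were a stricter limit of 94.7, no filter, other normalizations, array weights, fits of the compared groups alone, the t-test that the methods name for synergy, a replicate block, and leaving out arrays.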

Additional observations from a re-analysis of the deposited data

How the results depend on the processing

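For genes, 58 values were followed under 22 alternatives: those called in the fit described above, and member values called under some alternative. None changed sign where either fit made a call, and a change of sign with no call in either was not counted. Of 1275 recomputed values 1053 stayed on their side of the threshold, 215 lost it and 7 gained it. The other values named above were not part of this check. The methods' t-test, named there for the synergy comparison and not for the lists against vehicle, on 3 arrays against 3 with no shared spread, lost 54 called values and called 0 member probes in each of the 5 comparisons of 2 groups; it was not run for the interaction. Fitted with only the groups compared, T3+CORT against T3 called 2 member probes, as it did with vehicle replicate 1 and T3 replicate 2 both left out (an alternative chosen after seeing the data). Leaving out 1 array gave 1 to 3 member calls on CORT, 1 to 2 on T3+CORT and 2 to 5 for T3+CORT against T3, and 0 elsewhere. With each gene's probes averaged, 1 member gene was called on CORT and 3 on T3+CORT.

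Over all tested probes, array weights called 39 on T3, 5541 on T3+CORT, 190 for T3+CORT against CORT and 50 for the interaction. Only the groups compared called 9 on T3, 5471 on T3+CORT, 147 for T3+CORT against CORT and 2224 for T3+CORT against T3, and leaving out the 2 arrays called 156 for T3+CORT against CORT. The methods' t-test called 148 on CORT, 118 on T3+CORT, 0 for T3+CORT against CORT and 4 for T3+CORT against T3. Leaving out 1 array gave 10 to 26 calls on T3, 2162 to 4872 on CORT, 2227 to 4836 on T3+CORT, 42 to 169 for T3+CORT against CORT, 2645 to 3948 for T3+CORT against T3 and 2 to 21 for the interaction. The causes were not tested.

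Same-numbered replicates had correlated deviations in only some pairs (r of -0.238 to 0.422 over 18 pairs, 6 over 0.1), so the numbers were not taken as pairing. A replicate block left the member calls at 2 on CORT, 2 on T3+CORT and 4 for T3+CORT against T3, and gave 3633 calls over all probes on CORT; it lost the T3+CORT calls of Pla2g12a at ILMN_2518483 (limma adjusted p = 0.055) and Slco2a1 at ILMN_2433848 (0.053). Pla2g4a, Ptgs2 and the dim Anxa6 probes lie in the background, where signal limits what can be seen.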
